A study of Mus musculus and Homo sapiens with 65 samples.

Results

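A set of 9 genes of the interferon response was followed through late 2-cell mouse embryos: Ifitm1, Ifitm2, Ifitm3, Irf7, Irf1, Isg15, Bst2, Adar and Ifih1. They were taken by gene symbol from tables of 32287 genes, and all 9 were found. Ifitm3 was chosen by its measured FPKM, selected on its level in the embryos treated with alpha-amanitin and in those injected with morpholinos against Kdm5a and Kdm5b, so its values are given as a description without a test. The series holds 65 samples, and its 9 RNA-seq libraries of late 2-cell embryos were analysed here. They were 3 libraries of wild-type embryos, 2 of embryos treated with alpha-amanitin, which stops RNA polymerase II, 2 of embryos injected with Kdm5a and Kdm5b morpholinos together, and 2 of embryos injected with 5-base mismatch versions of those morpholinos. Per the labels, morpholinos went into zygotes 0.5 days after conception (0.5 dpc) and culture in G1 plus medium followed until late 2-cell. The mouse strain, the dose and route of alpha-amanitin and the number of embryos per library are not given in the labels used here. KDM5A and KDM5B are demethylases of lysine 4 on histone H3, and a morpholino is a synthetic antisense strand that keeps its target RNA from being translated or spliced. No source states that the replicates are separate embryo collections, and p-values therefore measure a spread between libraries that may be technical.

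In somatic cells, viral nucleic acid is read by sensors such as IFIH1 (MDA5), which act through adaptors and the factors IRF3 and IRF7 to switch on interferon genes. Secreted interferon binds its receptor, JAK kinases phosphorylate STAT factors, and STAT2 acts with IRF9 on an interferon-stimulated response element in the promoters of target genes. Among those targets, IFITM proteins sit in membranes and block the entry of viruses, BST2 (tetherin) holds budding virus on the cell surface, and ISG15 is a small ubiquitin-like protein that is attached to other proteins. ADAR edits adenosine to inosine in double-stranded RNA, which keeps the cell's own RNA from being read by IFIH1. Ifitm3, also called Fragilis, is known in mouse embryos as a gene expressed where germ cells are set aside. At the 2-cell stage the mouse embryo turns on its genome and loses much of the RNA inherited from the egg.

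The response element has at its core the letters GAAANNGAAA. RefSeq promoters of build GRCm38.p6 (the assembly of mm10), running from 250 bases before to 50 bases after each start site, were searched for it on both strands. Of the 9 genes, 5 had it, Ifitm3, Ifitm2, Isg15, Bst2 and Ifih1. Of 27025 genes with a promoter in the table, 3.99% had it, and of 32851 promoters of the same length, 3.44%. The windows of 30 bases are shown because they are the letters by which these genes are usually read as interferon targets. Capitals mark the core, each window is written 5′ to 3′ on the strand of its gene, which is the minus strand in all of them, and positions count from the RefSeq start site. In Ifitm3 the core began at position 3 (chr7:141010723-141010752) and again at position 20 (chr7:141010706-141010735), and those windows overlap.
Ifitm3, first: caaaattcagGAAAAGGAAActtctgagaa
Ifitm3, second: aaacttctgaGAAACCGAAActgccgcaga
Ifitm2: ccaccaacagGAAAAGGAAAttgctagaga
Isg15: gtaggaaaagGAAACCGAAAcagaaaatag
Ifih1: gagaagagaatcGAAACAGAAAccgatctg
The Ifitm2 core began at position -46 (chr7:140955988-140956017) and carried the same 10 letters as the first Ifitm3 core. The Isg15 core shown began at -72 (chr4:156200871-156200900), with further overlapping matches at -78 and -66. The matches in Bst2 began at -130 and -124 and overlap, and the Ifih1 core began at 33 (chr2:62646206-62646235). No match was found in these windows of Ifitm1, Irf7, Irf1 or Adar. These matches are letters in a window, and binding was not measured here.

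Levels are in FPKM, fragments per kilobase of transcript, scaled to the mapped fragments of the library, a scale that corrects for the length of the transcript and for the total of the library. Each level is therefore relative to the rest of that library's RNA, and in embryos measured in bulk, fewer cells that carry a transcript and less of it per cell cannot be told apart. The number of genes at 1 FPKM or more was 10611 to 11228 in the 7 libraries without alpha-amanitin and 7977 and 7935 with it. The labelled stage was checked on markers: Zfp352, a 2-cell transcript, stood at 79.3 to 99.4 FPKM in wild type, 1.77 and 3.05 with alpha-amanitin, 128 and 152 in mismatch control embryos and 122 and 137 in Kdm5a+b embryos. The targeted Kdm5a stood at 12.8 and 9.44 FPKM in mismatch control embryos and 19.5 and 15.4 in Kdm5a+b embryos, and Kdm5b at 55.3 and 39.6 against 38.1 and 27.6. A morpholino that blocks translation need not lower its target's RNA, so the depletion is not checked by these levels.

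Ifitm3 (ENSMUSG00000025492.6, chr7:141009586-141010770 on the minus strand of mm10, 2 exons) stood at 15.6, 11.6 and 17.5 FPKM in the 3 wild-type libraries. It stood at 18.9 and 15.4 FPKM in mismatch control embryos, at 44.5 and 50.5 FPKM with alpha-amanitin, and at 47.9 and 68.9 FPKM in Kdm5a+b embryos. All 4 libraries of alpha-amanitin and Kdm5a+b morpholino embryos were above all 5 libraries of wild-type and mismatch control embryos. In rising order of group means the levels were 14.9 ± 3.01 FPKM in wild type (SD, n = 3), 17.1 ± 2.46 in mismatch control embryos (SD, n = 2), 47.5 ± 4.24 with alpha-amanitin (SD, n = 2) and 58.4 ± 14.8 in Kdm5a+b embryos (SD, n = 2). Wild type and mismatch control overlapped, alpha-amanitin and Kdm5a+b morpholino overlapped, and the step between the mismatch controls and alpha-amanitin had no overlap.

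The mean of Ifitm3 was 3.19 times the wild-type mean with alpha-amanitin and 3.41 times the mismatch control mean in Kdm5a+b embryos, while the mismatch control mean was 1.15 times wild type. As differences in log2(FPKM + 1) these were 1.62, 1.70 and 0.20, at ranks 299, 110 and 4369 from the top of 13137 genes. With alpha-amanitin 13.4% of those genes had both treated libraries above all wild-type libraries, and in Kdm5a+b embryos 16.5% had both above both controls. Among all tested genes, Ifitm3 lay above 68.5% to 77.8% of genes in the wild-type libraries and above 79.8% and 76.5% in mismatch control embryos. It lay above 93.4% and 94.0% with alpha-amanitin and above 92.8% and 95.2% in Kdm5a+b embryos. These places restate the levels by which Ifitm3 was chosen and are not a separate check. The authors' deposited bounds of the estimate ran from 12.3 to 18.9 FPKM in wild-type replicate 1 and from 39.5 to 49.6 FPKM in alpha-amanitin replicate 1. They ran from 16.6 to 21.2 FPKM in mismatch control replicate 1 and from 43.7 to 52.2 FPKM in Kdm5a+b replicate 1.

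**Figure D1:**
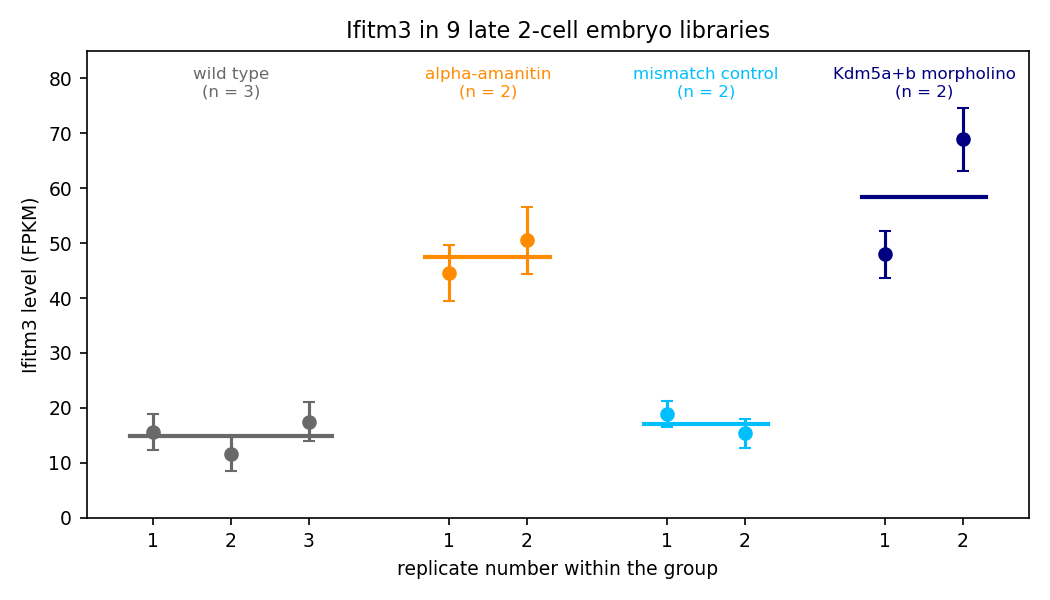
Ifitm3 level in FPKM (vertical axis) in each of 9 libraries, by group and replicate number (horizontal axis). Points are libraries, vertical bars the authors' deposited lower and upper bounds, and horizontal lines the group means; the 2 alpha-amanitin libraries (44.5 and 50.5) and the 2 Kdm5a+b morpholino libraries (47.9 and 68.9) lie above the other 5, which reach at most 18.9.

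Part of the Ifitm3 sequence is shared with related genes. Of the stretches of 31 bases in its GENCODE M21 transcripts, 20.5% also occur in another gene, most often in Gm7676, and how the authors' counting treated such reads is not known from the labels. Gm7676 stood at 0.458 to 1.63 FPKM in wild type, 1.27 and 0.828 with alpha-amanitin, 0.341 and 1.23 in mismatch control embryos and 1.42 and 6.84 in Kdm5a+b embryos. It was therefore lower than Ifitm3 in each of the 9 libraries, and in the Kdm5a+b libraries it also lay above both controls.

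Among the 9 genes, the other Ifitm genes, Ifitm1 and Ifitm2, were low. Ifitm1 (chr7:140967221-140969825, plus strand), a surface relative of Ifitm3, stood at 2.85, 0.470 and 1.5 FPKM in wild type, was listed at 0 FPKM in each alpha-amanitin library, stood at 1.31 and 0 in mismatch control embryos and at 1.12 and 1.76 in Kdm5a+b embryos. Every wild-type library was above both alpha-amanitin libraries, the opposite order to Ifitm3. The difference of -1.27 on the log2(FPKM + 1) scale (SE 0.54) did not pass the test (limma, Benjamini-Hochberg adjusted p = 0.105), and with a pseudocount of 0.1 in place of 1 it was -3.8 and passed (limma adjusted p = 0.0436). In the Kdm5a+b comparison the Ifitm1 difference was 0.67 (SE 0.59), and in the mismatch control comparison -0.67 (SE 0.54).

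Ifitm2 (chr7:140954839-140955961, minus strand) was listed at 0 in 6 of 9 libraries. It stood at 1.41 FPKM in wild-type replicate 1, 1.40 in mismatch control replicate 2 and 1.13 in Kdm5a+b replicate 1. No group held it in more than 1 library, and 55.5% of its 31-base stretches occur in another gene, most often in Gm45717. Its differences were -0.42 (SE 0.57) with alpha-amanitin, -0.08 (SE 0.63) in Kdm5a+b embryos and 0.21 (SE 0.57) in mismatch control embryos, none of which passed.

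Outside the 9 genes, Ifitm6, whose annotated span starts 6.2 kb from that of Ifitm3, stood at 5.86 to 16.3 FPKM in all 9 libraries, and its wild-type mean of 12.2 FPKM was near the 14.9 FPKM of Ifitm3. Its differences were 0.36 (SE 0.47) with alpha-amanitin and -0.19 (SE 0.51) in Kdm5a+b embryos, and neither passed. Ifitm5, the bone member of the family, was listed at 0 in all 9 libraries. Within 100 kb of the span that the 3 Ifitm genes cover on chromosome 7 there were 13 other genes, of which 8 passed the filter on low values. Pkp3, a desmosome protein, and Gm15542 fell with alpha-amanitin, and none rose, where 25.1% of all genes fell. The median difference of the 8 was -1.24, against -0.56 over all genes. Nlrp6 (difference -1.10), next to that median, was tested only because wild-type replicates 1 and 2 reached 1 FPKM (1.15 and 3.40). Nothing is therefore concluded from that median. Pkp3 stood at 1.47, 18.2 and 12.8 FPKM in wild type while both alpha-amanitin libraries listed it at 0, with a difference of -3.12 (SE 0.83, limma adjusted p = 0.0163). That call was lost without wild-type replicate 2 (adjusted p = 0.0505) or 3 (0.0530) and without alpha-amanitin replicate 1 (0.0720) or 2 (0.0747). Gm15542 carried the authors' status for low data in all 9 libraries and lies inside Psmd13. None of the 8 passed in the Kdm5a+b comparison, where their median difference was 0.01.

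**Figure D2:**
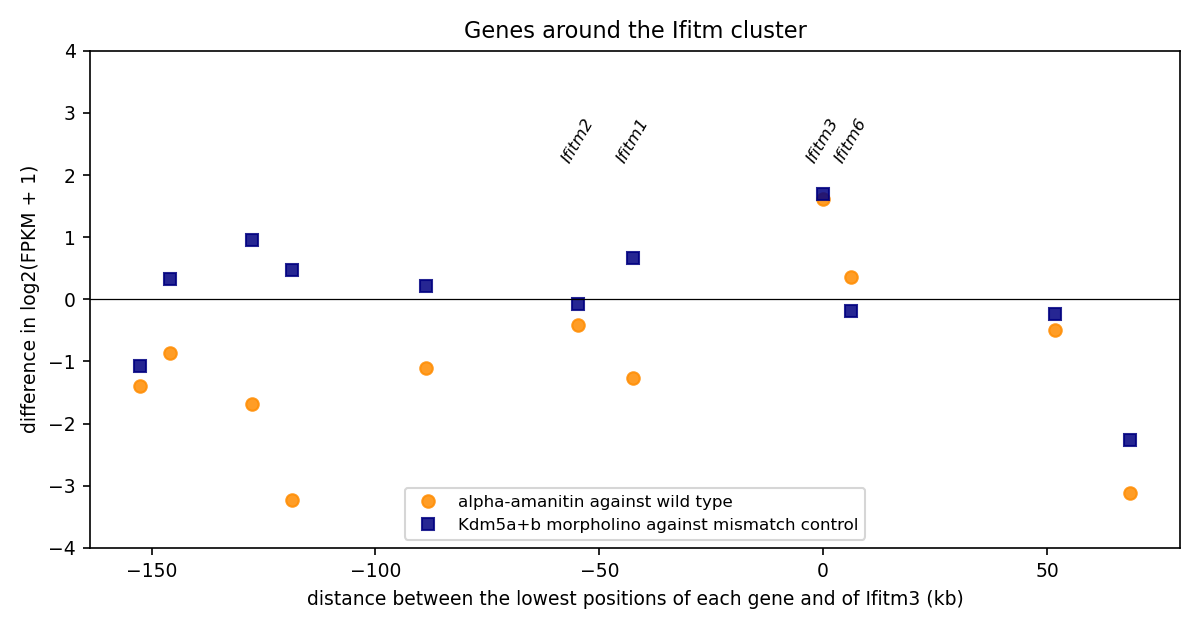
Difference in log2(FPKM + 1) (vertical axis) of genes that passed the filter around the Ifitm cluster, against the distance in kb between the lowest positions of each gene and of Ifitm3 (horizontal axis). Circles are alpha-amanitin minus wild type and squares Kdm5a+b morpholino minus mismatch control; Ifitm3 is above 0 in both (1.62 and 1.70), and its neighbour Ifitm6 lies at 0.36 and -0.19.

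The regulatory factors Irf1 and Irf7 went the other way with alpha-amanitin, and Irf3, outside the 9 genes, did not pass (difference 0.12, SE 0.69). Irf1 (chr11:53770014-53778374, plus strand), a factor that switches on interferon and antigen presentation genes, stood at 31.7, 36.0 and 12.2 FPKM in wild-type libraries and at 0.113 and 0.440 FPKM with alpha-amanitin. The groups were far apart, and the wild-type mean was 96.2 times the alpha-amanitin mean, although the deposited lower bound reached 0 in alpha-amanitin replicate 1. Irf1 fell by 4.31 on the log2(FPKM + 1) scale (SE 0.52, limma with Benjamini-Hochberg adjustment, adjusted p = 0.00015). It stood at 8.40 and 20.1 FPKM in mismatch control embryos and at 15.0 and 18.5 FPKM in Kdm5a+b embryos, which lie within the range of the controls. Its difference there was 0.32 (SE 0.57), and between mismatch control and wild type -0.84 (SE 0.52).

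Irf7 (chr7:141262706-141266481, minus strand), the factor that amplifies interferon alpha transcription, stood at 8.38, 4.22 and 13.7 FPKM in wild type. It was listed at 0 in alpha-amanitin replicate 1 and stood at 0.161 FPKM in replicate 2, below every wild-type library. Irf7 fell by 3.06 (SE 0.66, limma adjusted p = 0.00575). In the mismatch controls it stood at 6.31 and 0.679 FPKM and in Kdm5a+b embryos at 2.22 and 2.59 FPKM, between the controls, with a difference of -0.04 (SE 0.73). The mismatch controls differed from wild type by -1.36 (SE 0.66), which did not pass. Irf7 overlaps Phrf1 on the other strand, and whether the counting used strand is not known from the labels. Phrf1 stood at 17.0 to 32.2 FPKM in wild-type libraries and at 0.415 and 0.755 with alpha-amanitin, so both genes of the overlap were low in the same libraries, and its part in the Irf7 difference was not tested.

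Isg15 (chr4:156199424-156200818, minus strand), the ubiquitin-like modifier, stood at 1.63, 2.16 and 0.913 FPKM in wild type. It stood at 0.108 and 0 FPKM with alpha-amanitin, at 0.571 and 0 in mismatch control embryos, and was listed at 0 in both Kdm5a+b libraries. The wild-type libraries were above each of the other 6, and only wild-type libraries reached 1 FPKM, which is how the gene came to be tested. A gene that enters through the group where it is high had to differ, so its difference of -1.26 with alpha-amanitin (SE 0.42, limma adjusted p = 0.0463) is given as a description and not as a fall. The adjusted p was 0.0760 without wild-type replicate 1, 0.0914 without wild-type replicate 2, 0.131 and 0.183 without alpha-amanitin replicates 1 and 2, and 0.0635 and 0.0621 without Kdm5a+b replicates 1 and 2. With quantile normalization the difference was -0.54 (adjusted p = 0.327). The same limit holds for the mismatch controls, which lay below wild type by 1.00 (SE 0.42, limma adjusted p = 0.999), and that order is set aside. In the others of the 9 genes that passed the filter, the control and wild-type groups overlapped. Of all genes tested, 8.85% had both controls below wild type and 9.26% above.

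Bst2 (chr8:71534264-71537437, minus strand) stood at 5.95, 9.37 and 1.07 FPKM in wild-type libraries and at 0.508 and 2.63 FPKM with alpha-amanitin, where the groups overlapped. It stood at 6.39 and 1.61 FPKM in mismatch control embryos and at 11.1 and 11.5 FPKM in Kdm5a+b embryos. Both Kdm5a+b libraries were above both controls, as were those of 16.5% of all genes, and above the highest wild-type library. Their mean was 2.82 times the control mean, and the difference of 1.48 (SE 0.80) did not pass (limma unadjusted p = 0.0933, adjusted p = 1). It ranged from 0.73 to 2.23 with 1 library left out, and the difference with alpha-amanitin was -1.18 (SE 0.73, limma adjusted p = 0.255). No stretch of 31 bases in Bst2 occurs in another gene.

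Adar (chr3:89715022-89753446, plus strand) stood at 11.4, 15.4 and 4.17 FPKM in wild-type libraries and at 33.0 and 8.86 FPKM with alpha-amanitin. The high value came from 1 library: the difference of 0.85 (SE 0.61, limma adjusted p = 0.324) became -0.04 when alpha-amanitin replicate 1 was left out and 1.74 when replicate 2 was. Adar stood at 5.75 and 5.29 FPKM in mismatch control embryos and at 7.42 and 4.51 FPKM in Kdm5a+b embryos, and those groups overlapped (difference 0.06, SE 0.67). Its 31-base stretches are shared to 15.4% with other genes, most with the overlapping Chrnb2, which was listed at 0 in all 9 libraries.

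Ifih1 (chr2:62595798-62646255, minus strand), the sensor of long double-stranded RNA, stood at 1.88 FPKM in wild-type replicate 3 and at 0.00645 FPKM in mismatch control replicate 1. It was listed at 0 in the other 7 libraries and did not pass the filter of 1 FPKM in 2 libraries, so it was not tested. In wild-type replicate 3, Ifnk, an interferon of skin, stood at 3.88 FPKM. It also stood at 0.567 FPKM in Kdm5a+b replicate 1, where Ifih1 was listed at 0, and a link was not tested.

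**Figure D3:**
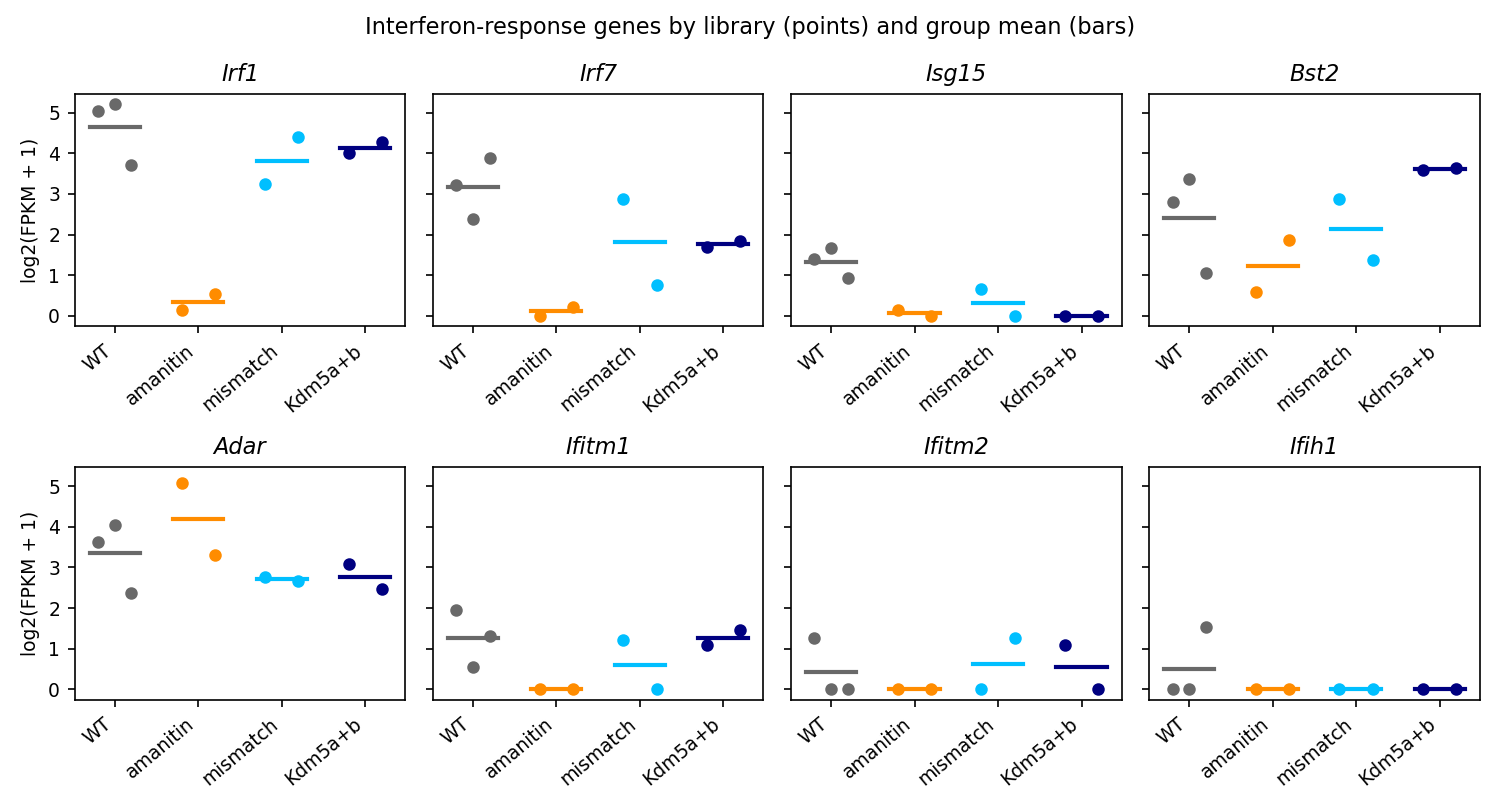
Levels of the 8 genes other than Ifitm3 as log2(FPKM + 1) (vertical axis) in wild-type, alpha-amanitin, mismatch control and Kdm5a+b morpholino libraries (horizontal axis). Points are libraries and bars group means; Irf1 and Irf7 are lowest in the alpha-amanitin libraries, and Bst2 is highest in both Kdm5a+b libraries (11.1 and 11.5 FPKM).

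Set side by side, 8 of the 9 genes passed the filter and 7, without Ifitm3, were tested. With alpha-amanitin Irf1 and Irf7 fell, none rose, and Ifitm1, Ifitm2, Bst2 and Adar did not pass. Isg15 was also under the threshold, but it was tested only because 2 wild-type libraries reached 1 FPKM, and it is not read as a fall. Among all 13137 genes 25.1% fell and 4.31% rose in that comparison. The median difference was -0.56 over all genes and -1.26 over the 7. The latter is the value of Isg15 itself, so nothing is concluded from it. With quantile normalization, which forces every library to the same distribution, 1806 genes fell and 1716 rose in place of 3299 and 566, and the median over all genes was 0.17. Both alpha-amanitin libraries were below all wild-type libraries for Irf1, Irf7 and Ifitm1, as for 41.1% of all genes. The same order in Isg15 is set aside, since that gene was tested only through wild type. Between the Kdm5a+b morpholinos and the mismatch controls none of the 7 passed, and limma called 0 of 13137 genes in either direction (0%), with 414 at an unadjusted p under 0.05. The median difference there was 0.06 over the 7 and 0.00 over all genes. Bst2, and Ifitm3 by the choice described, had both Kdm5a+b libraries above both controls, as had 16.5% of all genes, and no member had both below, against 16.8% of all genes. Between mismatch control and wild type limma again called 0 genes (0%), with 616 at an unadjusted p under 0.05. The medians were -0.67 over the 7, with Isg15 among them, and -0.01 over all genes. The alpha-amanitin and mismatch control comparisons share the wild-type libraries, and the mismatch control and Kdm5a+b comparisons share the control libraries.

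**Figure D4:**
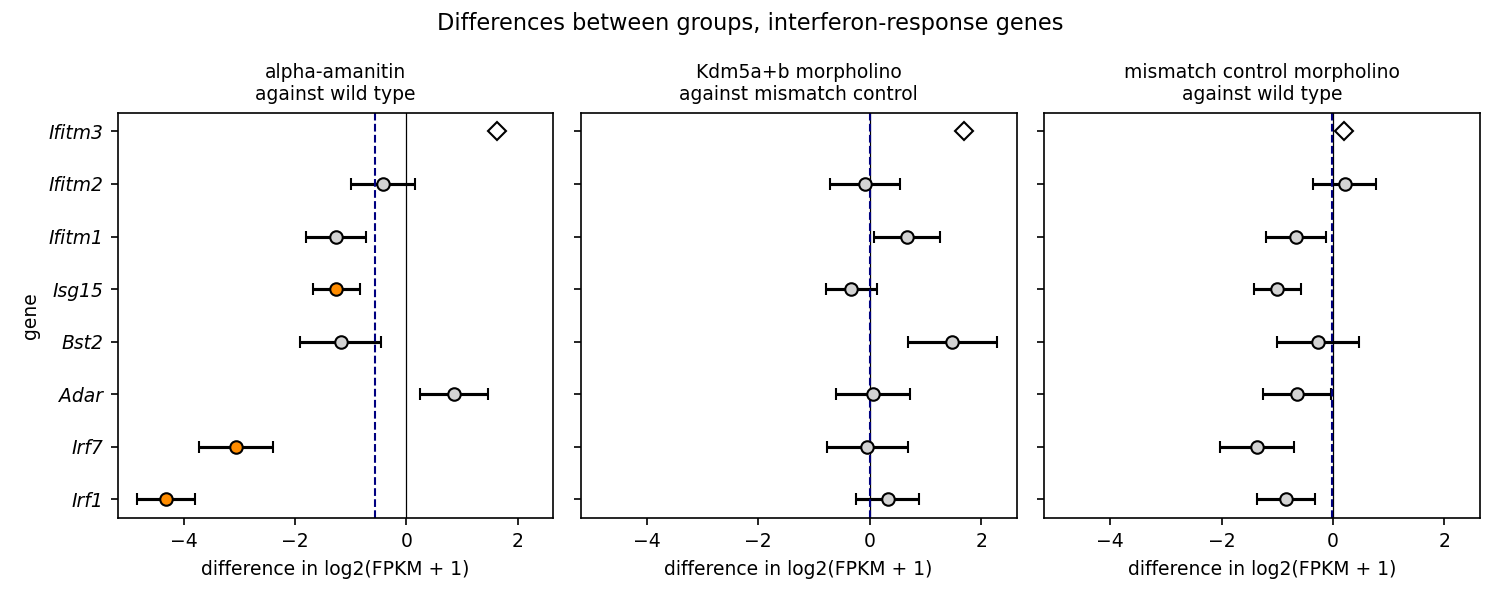
Differences in log2(FPKM + 1) (horizontal axis) of the 8 genes that passed the filter (vertical axis) in 3 comparisons. Circles carry the SE of the limma fit, orange circles passed at an adjusted p under 0.05 (Irf1, Irf7 and Isg15 with alpha-amanitin), the open diamond is Ifitm3, shown without a test, and the dashed line is the median of all genes (-0.56, 0.00 and -0.01).

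The rest of the pathway was read from lists of 120 genes, of which 118 were found, 58 passed the filter and 43 stayed under 1 FPKM in all 9 libraries. With alpha-amanitin 16 of the 58 fell and 1, Rela, rose, which is 27.6% lower against 25.1% of all genes and 1.7% higher against 4.31%. The median difference was -0.19, against -0.56 over all genes, and these shares of the lists are near or below the background. No gene of the lists passed in the Kdm5a+b or the mismatch control comparison, where the medians were 0.00 and 0.05. Of the 17 calls, 6 held in every alternative run: Trim25, H2-K1, Ptpn1, Ptpn2, Socs3 and Ticam1. The other 11 lost the call in 1 or more alternatives, and none of the 17 changed sign.

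Interferons themselves were hardly detected. Of 14 ligand genes, 11 were listed at 0 in all 9 libraries, including Ifnb1 and each of the Ifna genes looked up, and 13 stayed under 1 FPKM. None could be tested. Receptor and JAK-STAT genes were present, and 1 of 11 tested fell with alpha-amanitin (9.1%, against 25.1% of all genes; median 0.30). Jak2, a kinase of the interferon gamma receptor, stood at 58.1 to 136 FPKM, and Stat3 at 20.5 to 33.2 FPKM. Stat2, a subunit of the response factor, stood at 6.53, 2.71 and 9.17 FPKM in wild-type libraries and at 0.544 and 0.216 with alpha-amanitin. It fell by 2.26 (SE 0.52, limma adjusted p = 0.00791), with an adjusted p of 0.0529 without alpha-amanitin replicate 2 and 0.121 with quantile normalization.

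Of 11 tested sensors and adaptors 3 fell with alpha-amanitin (27.3%, against 25.1% of all genes; median -0.24). Trim25, the ubiquitin ligase of the RNA sensor RIG-I, stood at 14.8, 26.5 and 28.6 FPKM in wild-type libraries and at 0.380 and 0.0463 with alpha-amanitin, and fell by 4.28 (SE 0.38, limma adjusted p = 2.23e-05). Ticam1, the adaptor of TLR3, stood at 5.49, 6.85 and 3.79 FPKM in wild type while both alpha-amanitin libraries listed it at 0 (difference -2.64, SE 0.50, limma adjusted p = 0.00251). The third, Mavs, the adaptor of the RNA sensors, stood at 8.78 to 15.5 FPKM in wild-type libraries and at 2.03 and 3.44 with alpha-amanitin. It fell by 1.77 (SE 0.48, limma adjusted p = 0.0178), with an adjusted p of 0.0531 without wild-type replicate 1, 0.107 without alpha-amanitin replicate 1 and 0.272 with quantile normalization.

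Of 6 tested brakes of the pathway 3 fell (median -0.74), beside 25.1% and a median of -0.56 over all genes, and a list this short was not tested as a group. Socs3, an inhibitor of JAK signalling, stood at 7.46, 8.18 and 5.69 FPKM in wild-type libraries and at 0.0262 and 0 with alpha-amanitin (difference -2.99, SE 0.53, limma adjusted p = 0.00189). The phosphatase Ptpn2 stood at 44.6, 72.0 and 51.8 FPKM in wild-type libraries and at 20.4 and 21.2 with alpha-amanitin, a fall by 1.36 (SE 0.28, limma adjusted p = 0.00435). Ptpn1 stood at 4.40 to 5.18 FPKM in wild-type libraries and at 0 and 0.308 with alpha-amanitin (difference -2.35, SE 0.42, limma adjusted p = 0.00182). In each of these 3 genes, named because they were called lower, the alpha-amanitin libraries were below every wild-type library, as for 41.1% of all genes.

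Of 6 tested antigen presentation genes 4 fell (median -1.81), beside the same 25.1% and -0.56 over all genes and again without a test of the list. H2-K1, a class I heavy chain, stood at 28.9, 53.0 and 38.3 FPKM in wild-type libraries and at 5.16 and 1.70 with alpha-amanitin, where the wild-type mean was 11.7 times higher (difference -3.29, SE 0.39, limma adjusted p = 0.000138). Its light chain B2m stood at 8.00, 29.8 and 22.8 FPKM in wild-type libraries and at 5.99 and 2.70 with alpha-amanitin, and fell by 1.88 (SE 0.52, limma adjusted p = 0.0202). That call was lost without wild-type replicate 2 (adjusted p = 0.0620) or 3 (0.0633), without alpha-amanitin replicate 2 (0.147) and with quantile normalization (0.185). Of 13 tested antiviral effectors 3 fell (23.1%, against 25.1% of all genes; median -0.02). Zc3hav1, which binds CpG-rich viral RNA, stood at 13.3, 6.82 and 8.04 FPKM in wild-type libraries and at 0.782 and 1.45 with alpha-amanitin, and fell by 2.26 (SE 0.43, limma adjusted p = 0.00257; 0.0646 with quantile normalization). Samhd1, which degrades nucleotides, did not pass and stood at 27.6 to 43.1 FPKM in all libraries.

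Among 8 tested IRF and NF-kappaB factors 2 fell (25.0%, against 25.1% of all genes) and Rela rose (median -0.38). Rela, part of NF-kappaB, stood at 3.88, 1.64 and 1.41 FPKM in wild-type libraries and at 7.59 and 10.1 with alpha-amanitin. Both treated libraries were above all 3 wild-type libraries, as for 13.4% of all genes. The Rela difference was 1.63 (SE 0.52, limma adjusted p = 0.0364). The call was lost without wild-type replicate 2 (adjusted p = 0.0805) or 3 (0.0943), and without alpha-amanitin replicate 1 (0.0945) or 2 (0.181). Neither of 2 tested editing genes passed, and none of 3 genes of ISG15 conjugation could be tested.

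**Figure D5:**
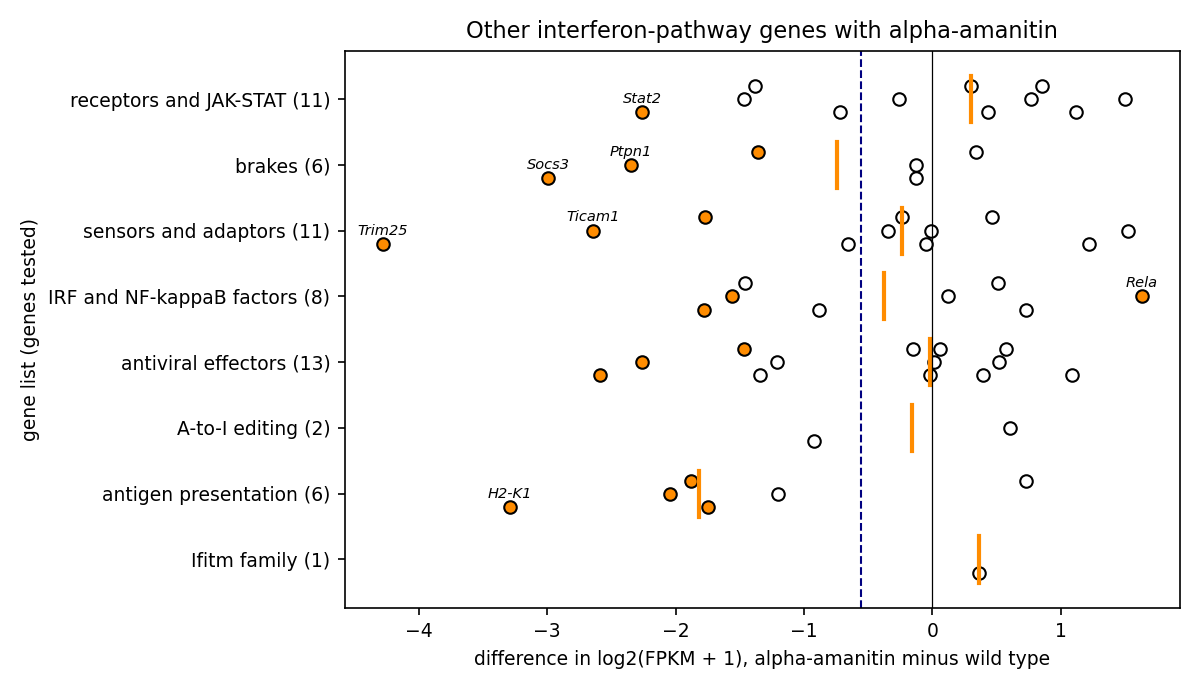
Differences in log2(FPKM + 1) between alpha-amanitin and wild type (horizontal axis) of the 58 tested genes of the other pathway lists (vertical axis, number tested in brackets). Filled circles passed at an adjusted p under 0.05, short bars are list medians and the dashed line is the median of all genes (-0.56); 16 genes fell and Rela rose.

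Markers of other cells were read in the same libraries. The summed level of 13 blood and immune markers was 6.50 to 19.2 FPKM in wild type, 7.52 and 14.2 with alpha-amanitin, 8.36 and 18.5 in mismatch control embryos and 8.50 and 12.7 in Kdm5a+b embryos. Hbb-bs, Hbb-bt and Fcer1g were listed at 0 in all 9 libraries, while Laptm5 reached 1 FPKM in all 9. Hba-a1 reached 4.62 FPKM in wild-type replicate 1. Hba-a2 was listed at 0 in wild-type and alpha-amanitin libraries. It stood at 1.33 and 2.0 FPKM in mismatch control embryos and at 1.15 and 5.72 in Kdm5a+b embryos. Only injected embryos held Hba-a2, so, like Isg15, it was tested through the groups where it is high. Its difference between mismatch control and wild type, 1.4 (SE 0.51), did not pass. Of the 7 tested, 1, Coro1a, was under the threshold with alpha-amanitin. Only the 3 wild-type libraries held Coro1a at 1 FPKM or more, so, like Isg15, it is not read as a fall. These sums overlapped between the groups. The 11 cumulus and granulosa markers summed to 2.37 to 4.26 FPKM in wild type, 0.508 and 0.827 with alpha-amanitin, 1.10 and 3.87 in mismatch control embryos and 0.513 and 1.06 in Kdm5a+b embryos, and Tnfaip6, which is also an inflammatory gene, stood at 1.67 to 3.42 FPKM of the wild-type sums and at 0 and 0.13 FPKM with alpha-amanitin. Of these 11 markers 9 stayed under 1 FPKM in all libraries and 1 passed the filter, so the sums are near the floor. The 6 oviduct markers summed to at most 9.49 FPKM and the 7 sperm markers to at most 5.96 FPKM in any library, and no fibroblast marker passed the filter. The part of other cells in the Ifitm3 levels was not tested.

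Markers of the embryo's stage moved with alpha-amanitin. All 9 measured 2-cell markers fell (median -4.05), from sums of 288 to 390 FPKM in wild type to 14.2 and 16.4 FPKM. In the Kdm5a+b comparison none of the 9 passed, with sums of 380 and 443 FPKM against 358 and 382 FPKM in the controls. Of 8 oocyte markers 2 rose with alpha-amanitin, Bmp15 and Zbed3 (median of the 8 0.54), and their summed level was 9170 and 10200 FPKM against 3500 to 3890 FPKM in wild type. Most of that sum was Zbed3, at 8251 and 9209 FPKM with alpha-amanitin and 3024 to 3281 FPKM in wild type, and the other 6 oocyte markers did not pass. In the Kdm5a+b libraries the sum was 4180 and 4680 FPKM against 3970 and 4100 FPKM in the controls. The alpha-amanitin libraries with high Ifitm3 thus also had high Zbed3 and Bmp15, and the Kdm5a+b libraries had 2-cell and oocyte sums near those of their controls. The part of these stage differences in the Ifitm3 levels was not tested.

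The genes whose log2(FPKM + 1) over the 9 libraries was most like that of Ifitm3, among 6662 tested genes reaching 10 FPKM in a library, were Gyg (Pearson r = 0.966), Myo19 (0.962), Tmem8 (0.932), Bgn (0.931) and Haus4 (0.930). Gyg primes glycogen synthesis, Myo19 is a mitochondrial myosin and Bgn is a matrix proteoglycan. Gyg stood at 28.5 to 55.6 FPKM in wild type, 54.6 and 51.3 in mismatch control embryos, 117 and 157 with alpha-amanitin and 248 and 261 in Kdm5a+b embryos. Its alpha-amanitin and Kdm5a+b libraries lay above the other 5, as for Ifitm3, an order favoured by the choice of Gyg for its r with Ifitm3. Bgn stood at 0 to 0.882 FPKM in wild type, 0.387 and 1.16 in mismatch control embryos, 2.72 and 13.5 with alpha-amanitin and 7.80 and 9.19 in Kdm5a+b embryos. Since the 9 libraries fall into a low and a high set for Ifitm3, r largely measures that split, and only Myo19 stayed among the 5 highest with Spearman's rho. Among the other 7 tested interferon-response genes r with Ifitm3 was lowest for Isg15 (-0.77), Irf1 (-0.54) and Irf7 (-0.54), followed by Ifitm2 (-0.23) and Ifitm1 (-0.12), and was 0.03 for Adar and 0.09 for Bst2. These are descriptions over 9 libraries that share groups.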

How the data were processed

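RNA-seq libraries of late 2-cell mouse embryos were analysed. Per the labels' protocols, RNA came from RNeasy Micro columns and libraries followed the TruSeq procedure. The submitters' processing notes name BWA, Picard, Cufflinks, Trimmomatic, Bismark 12.5 and SAMtools without roles, and build mm10. The RNA-seq aligner, annotation release and strand setting were not given in the sources used here. Per the file headers, the authors' deposited tables (1 per library) hold the FPKM of 32287 genes, its lower and upper bounds and a status, which was OK for the 9 genes described. Depth in reads is unknown.

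Levels were transformed to log2(FPKM + 1). The 13137 genes that reached 1 FPKM in 2 or more of the 9 libraries were tested in limma 3.58.1 (R 4.3.3), with group as the only term, all 9 libraries, 5 residual degrees of freedom, eBayes with trend, two-sided tests and Benjamini-Hochberg adjustment. A call is an adjusted p under 0.05. The fit was also run on simulated data, in which only genes high in wild type were changed, evenly up and down. That run does not cover low genes or a mostly downward change. Differences on this scale understate the change of low genes, and a 0 is described as listed at 0. Named genes were the 9 members, genes of pathway and marker lists, genes within 100 kb of the Ifitm span and the 5 genes most correlated with Ifitm3. The members and lists were chosen with earlier results of these data known. Of the lists, Irf8, Herc5 and Dux were not matched and are not analysed here. Promoters came from RefSeq (GRCm38.p6), and shared stretches and overlaps from GENCODE M21. Alternatives changed the pseudocount, filter, scaling, replicate block, libraries fitted, reference group and eBayes trend, and left out each library in turn.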

Additional observations from a re-analysis of the deposited data

How the results depend on the processing

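The Irf1 and Irf7 calls with alpha-amanitin held in all 17 alternatives run. Isg15, not read as a fall, was under the threshold in 7 of the 16 that tested it and is counted where it passed. Of the 7 tested genes 4 were called lower with a pseudocount of 0.1, beside 3863 of all 13137 genes. With quantile normalization 2 were, beside 1806 of all genes. The filter at 5 FPKM left 4 to test, of which 2 were lower, beside 3006 of 7933. The Ifitm3 difference ranged from 1.46 to 1.95 with alpha-amanitin (1.95 with quantile normalization), from 1.44 to 1.95 with the Kdm5a+b morpholinos and from 0.04 to 0.34 in the mismatch controls. Genes higher with alpha-amanitin numbered 566, against 1716 with quantile normalization, 371 with the replicate block, 339 with 2 groups only and 298 to 502 with 1 library left out; genes lower numbered 3299, against 1806 with quantile normalization. The pathway gene called higher (1) became 0 with no filter, with the replicate block or with 2 groups only, 3 with the filter at 5 FPKM or with TPM, 9 with quantile normalization and 0 to 3 with 1 library left out. Pathway genes lower (16) became 10 with no filter, 6 with quantile normalization, 10 with the replicate block and 8 to 15 with 1 library left out. With no filter the Kdm5a+b comparison called 17 genes higher and 10 lower in place of 0, and the mismatch control comparison 11 higher in place of 0. The Kdm5a+b libraries against wild type gave 1 gene higher. With 1 library left out the Kdm5a+b comparison gave 0 to 3 higher and 0 to 1 lower, and the mismatch control comparison 0 to 1 higher and 0 to 3 lower. The cause of these changes was not tested. Of the 5 genes most like Ifitm3, 1 was kept with Spearman's rho and 1 with quantile normalization.

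Replicate numbers were shared between groups by number only: deviations of same-numbered libraries correlated at -0.048 to 0.041. With the replicate block Isg15 differed by -1.45 (limma adjusted p = 0.0565), and the calls of Mavs, B2m and Rela were lost too. Groups of 2 and 3 libraries and FPKM without read counts limit the precision of every value here; leaving out a library of a pair leaves 1, which is then assumed to vary like the other groups.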
